A study of Rattus norvegicus with 12 samples.

Results

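The genes described here are those of the extracellular matrix and of the hepatic stellate cell, measured in the liver of rats given D-penicillamine or water. They were chosen by name, with earlier results of these data known. A probe set, the group of array probes that reports on 1 transcript, was taken where it was annotated to exactly 1 symbol that began with Col and a digit, Lama, Lamb, Lamc, Timp or Adamts, or that was 1 of 20 listed genes of matrix and stellate cells. This gave 85 of 15866 probe sets, for 64 of the 10411 genes named on the array. They comprise 29 collagen genes, 8 laminin genes, 3 Timp genes, 4 genes of the Adamts family and the 20 listed genes, all of which were measured. The D-penicillamine group held 8 rats that received 150 mg/kg in 1 mL of tap water by oral gavage, and the vehicle group held 4 rats that received water. All 12 were male Brown Norway rats, an inbred strain, of 150 to 170 g, killed 6 h after dosing. Their age is not given in the sources used here. Rats were housed 2 to a cage, and which of them shared one is not given in the sources used here. Each rat gave 1 array from whole frozen liver, so in these data fewer cells of a type and less RNA per cell cannot be told apart. Numbers of rats are those of the labels.

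Hepatic stellate cells lie between the sinusoidal endothelium and the hepatocytes. In healthy liver they store vitamin A as retinyl esters, and after injury they can become contractile, collagen-producing myofibroblasts, a change driven in part by platelet-derived and transforming growth factors. Collagen chains are secreted as procollagen, trimmed, assembled into fibrils and then cross-linked by lysyl oxidases, copper enzymes that turn lysine side chains into reactive aldehydes. D-penicillamine binds copper and reacts with such aldehydes, and it is known for interfering with collagen cross-linking. The comparison asks whether transcripts of this system differed between treated and untreated livers at an early time.

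The values are log2 expression values, so a difference of 1 is a 2-fold difference, and every difference below is D-penicillamine minus vehicle. No matrix or stellate cell probe set passed an adjusted p of 0.05 (limma, Benjamini-Hochberg over all 15866 probe sets), and the smallest adjusted p among the 85 was 0.693. Over the whole array 0 probe sets passed, which is 0%. An unadjusted p under 0.05 was reached by 5 of the 85 probe sets (5.88%), against 6.16% of all probe sets. All 5 were lower in D-penicillamine rats, where 3.48% of all probe sets were lower and 2.68% higher at that threshold. They belong to Lum, Lox (both of its probe sets), Acta2 and Pdgfrb. Because the members were chosen with earlier results of these data known, their count is only a description. Count and direction depended on single vehicle rats. Without vehicle rat 2 the count was 10, of which 8 were lower and 2 higher (11.8%, against 5.32% of all probe sets). Without vehicle rat 1 it was 8, of which 4 were lower and 4 higher (9.41%, against 6.27% of all probe sets). In none of the 85 were the 2 groups of rats free of overlap, against 0.574% of all probe sets.

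With each gene read by its brightest probe set, 42 of the 64 genes had a negative difference, 21 a positive one and 1 a difference of 0. That is 65.6% negative, against 51.6% of all named genes. The median difference was -0.016, against -0.0037 over all named genes, and the differences ran from -0.68 for Lox to 0.18 for Col18a1. The median depended on single vehicle rats. It was 0.0092 without vehicle rat 1, which turned its sign, and -0.043 without vehicle rat 2. For 63 of the 64 genes the 95% interval of the difference stayed within a 1.5-fold change either way, and Lox was the exception. The same held for 10276 of the 10411 named genes, so it does not set the matrix genes apart. Of the 19 genes with several probe sets, 4 (Lama5, Lamc1, Mmp2 and Sparc) had probe sets of opposite sign.

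**Figure D1:**
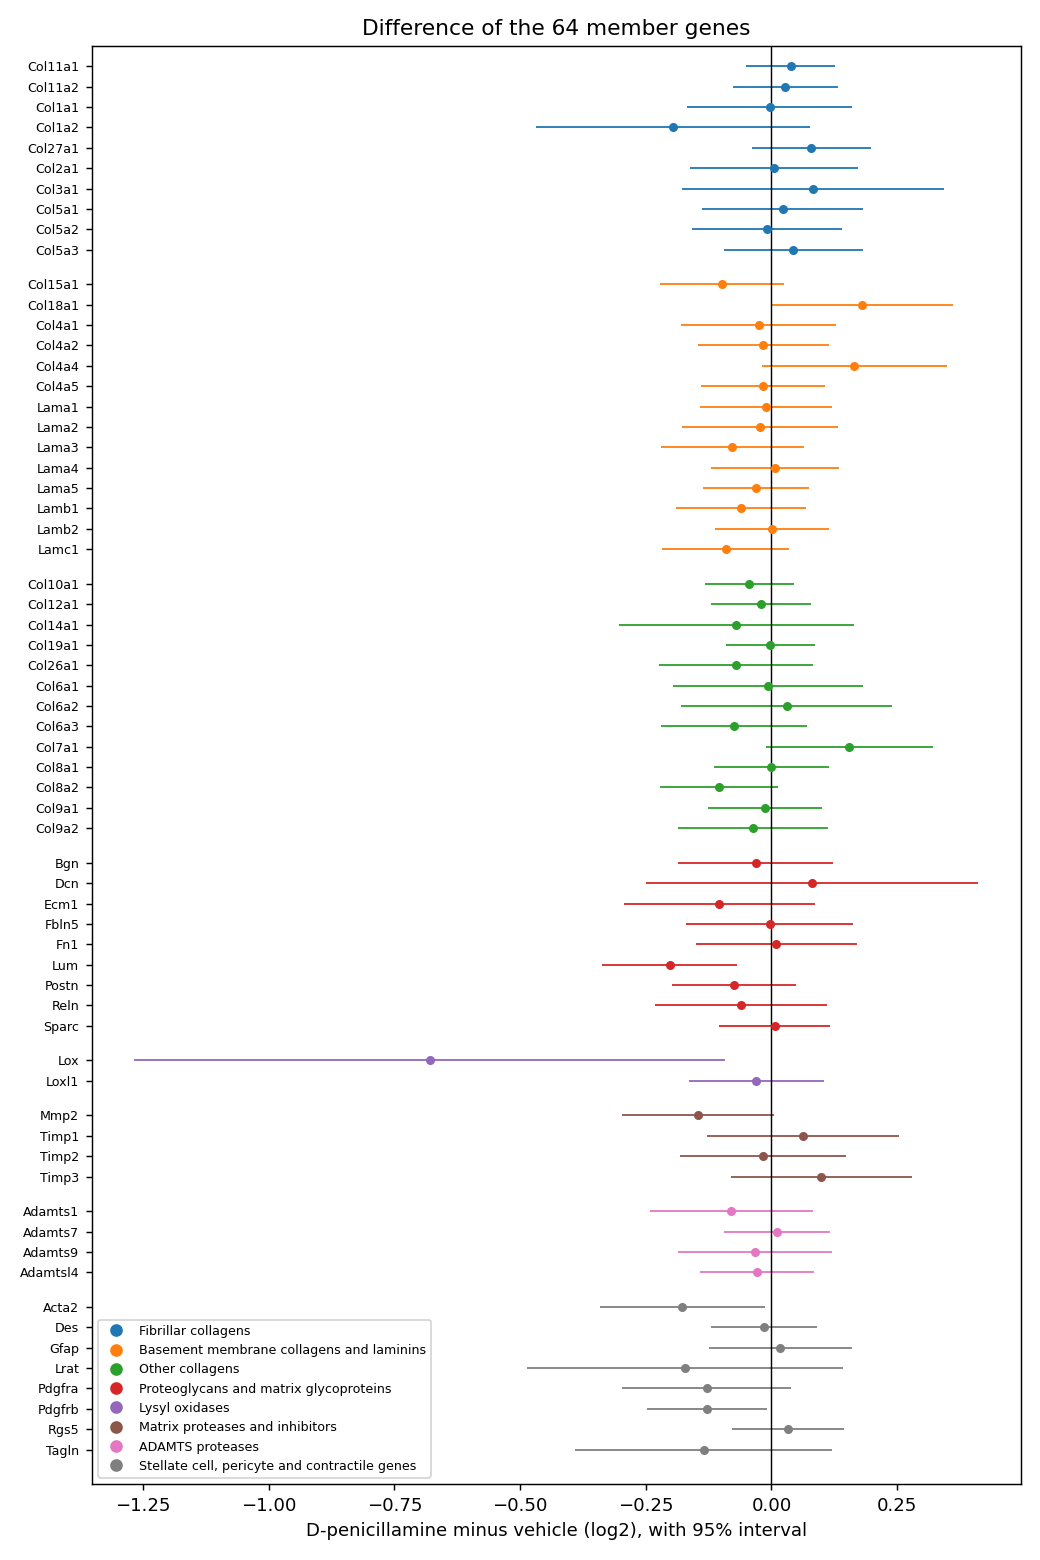
The 64 genes run down the page by role, with the difference of D-penicillamine (n = 8) minus vehicle (n = 4) on the log2 scale on the horizontal axis. Points are estimates and bars 95% intervals from limma; most bars cross 0, and Lox stands lowest at -0.68 with the widest interval.

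Lum encodes lumican, a small leucine-rich proteoglycan that binds collagen fibrils and limits their width. Its values ran from 4.03 to 4.35 in the 8 D-penicillamine rats (median 4.17), against 4.27, 4.29, 4.52 and 4.48 in vehicle rats 1 to 4. All 8 treated rats lay below the vehicle mean, while their upper end overlapped vehicle rats 1 and 2. The difference was -0.20 (SE 0.063, 95% interval -0.34 to -0.068, limma adjusted p = 0.693), a fold of 0.869. By p it stood at place 133 of 15866. The signal of this probe set was dim, at percentile 5.53 of all probe sets.

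Lox, the lysyl oxidase gene itself, had the widest spread of all 64. The brighter probe set ran from 5.59 to 7.34 in D-penicillamine rats (median 6.60), against 7.24, 7.66, 6.94 and 7.25 in vehicle rats. Treated rats thus reached from far below the vehicle rats up into their range, with 7 of 8 below the vehicle mean. The SD was 0.619 among treated and 0.296 among vehicle rats, and the difference was -0.68 (SE 0.28, 95% interval -1.27 to -0.092, adjusted p = 0.764). The second probe set ran from 4.61 to 5.79 in D-penicillamine rats (median 5.035), against 5.62, 5.80, 5.42 and 5.61 in vehicle rats. It gave the same picture, at -0.51 (SE 0.17, adjusted p = 0.693). Leaving out any of the 12 rats kept the Lox difference between -0.79 and -0.54. Its relative Loxl1, which acts on elastin, ran from 6.73 to 7.06 in D-penicillamine rats (median 6.80), against 6.98, 6.76, 6.82 and 6.90 in vehicle rats. Here the groups covered the same range, with a difference of -0.030 (SE 0.063, adjusted p = 0.950) that was 0.0083 without vehicle rat 1.

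Acta2 encodes alpha smooth muscle actin, a marker of myofibroblasts and of vessel walls. It ran from 6.28 to 6.67 in D-penicillamine rats (median 6.455), against 6.46, 6.70, 6.60 and 6.79 in vehicle rats. Of the treated rats 7 of 8 lay below the vehicle mean, but vehicle rat 1 sat among them. The difference was -0.18 (SE 0.077, 95% interval -0.34 to -0.013, adjusted p = 0.781). Pdgfrb, the receptor through which platelet-derived growth factor acts on stellate cells and pericytes, ran from 5.93 to 6.09 in D-penicillamine rats (median 6.05), against 6.35, 6.13, 6.08 and 6.08 in vehicle rats. All 8 treated rats lay below the vehicle mean, which vehicle rat 1 raised. The difference was -0.13 (SE 0.056, 95% interval -0.25 to -0.0084, adjusted p = 0.781), and -0.064 without vehicle rat 1.

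**Figure D2:**
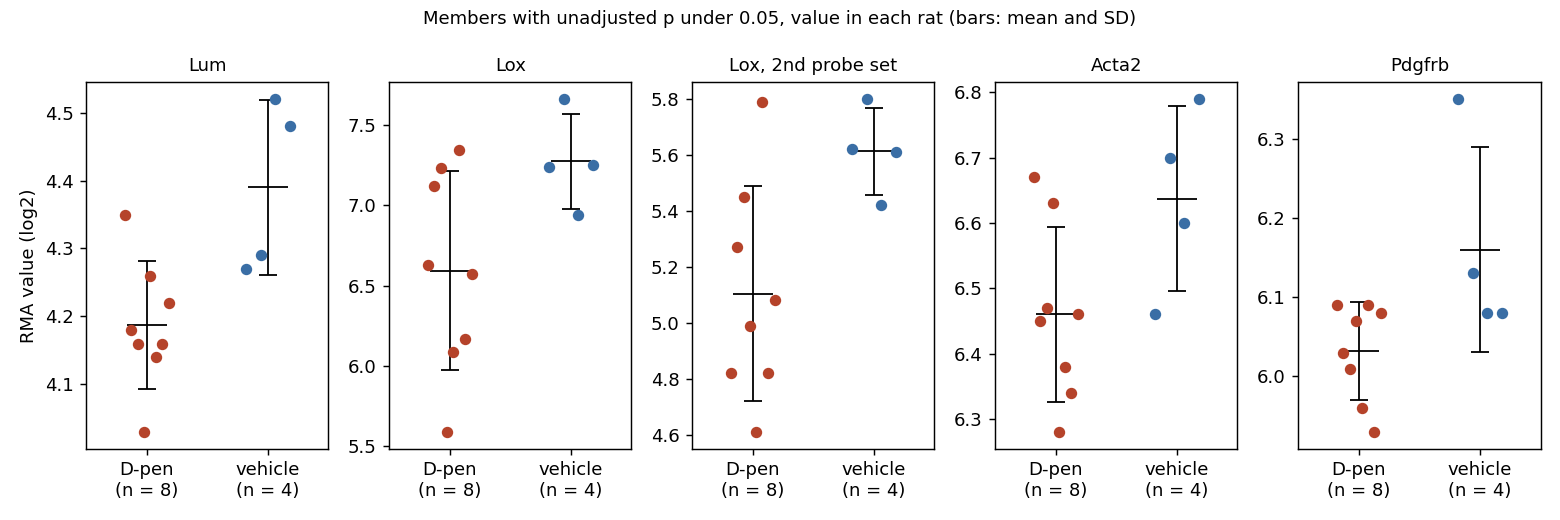
Each panel gives the log2 value of 1 probe set in every rat, D-penicillamine (n = 8) left of vehicle (n = 4), with bars for the mean and SD. The panels show the 5 probe sets with an unadjusted p under 0.05, and in each of them the lowest rat is a treated one while the groups overlap.

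Of these 4 genes, Lum and Acta2 have a promoter in the RefSeq table for the GRCr8 rat assembly, and both are printed to show the sequence at the start of 2 genes whose transcripts were at the low end. Each runs 5′ to 3′ on the gene's strand, from 250 bases before to 50 bases after the annotated start. The Lum window is chr7:34245456-34245755 on the plus strand and the Acta2 window is chr1:241172454-241172753 on the minus strand. Capitals mark a match to TATANA, which in Acta2 begins 42 bases before the start and reads the same on both strands.
Lum: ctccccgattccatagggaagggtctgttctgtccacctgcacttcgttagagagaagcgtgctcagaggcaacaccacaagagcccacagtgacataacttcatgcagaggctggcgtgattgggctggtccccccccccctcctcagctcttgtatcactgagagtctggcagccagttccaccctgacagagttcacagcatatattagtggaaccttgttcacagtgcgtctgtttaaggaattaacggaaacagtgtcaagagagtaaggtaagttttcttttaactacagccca
Acta2: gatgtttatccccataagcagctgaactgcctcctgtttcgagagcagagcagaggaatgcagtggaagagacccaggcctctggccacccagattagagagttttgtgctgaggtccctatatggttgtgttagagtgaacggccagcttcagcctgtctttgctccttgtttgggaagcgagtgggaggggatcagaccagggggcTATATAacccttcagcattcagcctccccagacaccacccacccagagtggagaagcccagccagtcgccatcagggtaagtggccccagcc
Promoters were found for 50 of the 64 genes. TATANA, on either strand, occurred in 11 of the 50 (22.0%) and in 26.5% of 33469 promoters of the same length. The GC-box letters GGGCGG, on either strand, occurred in 28 of 50 (56.0%) and in 33.1% of all promoters. The 33469 promoters were not limited to genes named on the array, so these shares compare unlike sets and were not tested. The Lum window held neither, which concerns only these letters in this window.

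The other stellate cell, pericyte and contractile genes overlapped between groups. Of the 8 genes of this role 6 were negative, with a median of -0.13. An unadjusted p under 0.05 was reached by 2 of the 8 (Acta2 and Pdgfrb), against 6.36% of all named genes. The role was listed with earlier results of these data known, so its share is only a description. Their mean level over the 8 genes ran from 6.16 to 6.34 in D-penicillamine rats, against 6.23 to 6.395 in vehicle rats, where vehicle rat 2 was the lowest. Lrat, which makes the retinyl esters that stellate cells store, ran from 5.84 to 6.79 in D-penicillamine rats (median 6.605), against 6.88, 6.35, 6.85 and 6.80 in vehicle rats. A rat in each group, D-penicillamine rat 4 and vehicle rat 2, stood far below its fellows. The difference was -0.17 (SE 0.15, adjusted p = 0.872), and -0.071 without D-penicillamine rat 4. Pdgfra, a growth factor receptor of stellate cells and fibroblasts, ran from 7.15 to 7.54 in D-penicillamine rats (median 7.41), against 7.60, 7.25, 7.64 and 7.61 in vehicle rats. Vehicle rats 1, 3 and 4 lay above every treated rat and vehicle rat 2 among them. The difference was -0.13 (SE 0.079, adjusted p = 0.832), and -0.22 without vehicle rat 2.

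Tagln, an actin-binding protein of contractile cells, ran from 5.36 to 6.08 in D-penicillamine rats (median 5.745), against 5.77, 5.63, 6.28 and 5.82 in vehicle rats. Its difference of -0.135 (SE 0.12, adjusted p = 0.878) was 0 without vehicle rat 3, the rat with the highest value. The intermediate filament gene Des ran from 5.59 to 5.78 in D-penicillamine rats (median 5.68), against 5.77, 5.74, 5.66 and 5.61 in vehicle rats, and the groups covered the same range (difference -0.015, SE 0.049). Gfap, an intermediate filament gene of astrocytes that rat stellate cells also express, ran from 5.68 to 6.03 in D-penicillamine rats (median 5.79), against 5.90, 5.77, 5.70 and 5.81 in vehicle rats. Rgs5, a pericyte regulator of G protein signalling, ran from 6.22 to 6.48 in D-penicillamine rats (median 6.36), against 6.43, 6.30, 6.27 and 6.36 in vehicle rats. For Gfap and Rgs5 the groups overlapped nearly throughout, with differences of 0.018 (SE 0.067) and 0.033 (SE 0.052).

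Fibrillar collagens form the load-bearing fibres of liver stroma, and the role, which also takes in Col27a1 of cartilage, was mixed in sign. Of 10 genes, 7 were positive and 3 negative, with a median of 0.025 and no unadjusted p under 0.05. The negative ones were Col1a1, Col1a2 and Col5a2, whose probe sets were all negative, down to -0.17, -0.195 and -0.13. Of the 7 positive ones, Col2a1 stood at 0.0050 and Col11a1 was dim, at percentile 0.596 of signal. Col3a1, which encodes the chain of type III collagen, ran from 10.50 to 10.81 in D-penicillamine rats (median 10.61), against 11.00, 10.08, 10.39 and 10.68 in vehicle rats. The vehicle rats enclosed the treated rats at both ends, with an SD of 0.104 in treated and 0.394 in vehicle rats. The difference was 0.083 (SE 0.12, adjusted p = 0.924), between -0.070 without vehicle rat 2 and 0.24 without vehicle rat 1. Col1a2, the second chain of type I collagen, ran from 6.67 to 7.05 in D-penicillamine rats (median 6.81), against 7.48, 6.55, 6.90 and 7.18 in vehicle rats. Again the highest and the lowest rat were both vehicle rats. The difference was -0.195 (SE 0.13, adjusted p = 0.838), between -0.35 without vehicle rat 2 and -0.044 without vehicle rat 1, and its other probe set stood at -0.12 (SE 0.14).

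Col1a1, the main chain of type I collagen, ran from 6.79 to 7.08 in D-penicillamine rats (median 6.845), against 7.17, 6.74, 6.87 and 6.73 in vehicle rats. The difference was -0.0038 (SE 0.077, adjusted p = 0.996), with a sign that depended on the rats included, and its other probe set stood at -0.17 (SE 0.14). Col27a1, a fibrillar collagen of cartilage, was chosen with Col11a1 by its small p within the role. Col27a1 ran from 7.12 to 7.33 in D-penicillamine rats (median 7.22), against 7.10, 7.00, 7.27 and 7.19 in vehicle rats, and 7 of 8 treated rats lay above the vehicle mean (difference 0.079, SE 0.055, adjusted p = 0.855). Col11a1 ran from 3.72 to 3.86 in D-penicillamine rats (median 3.76), against 3.77, 3.67, 3.74 and 3.78 in vehicle rats (difference 0.039, SE 0.042).

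The spread between rats was compared as the SD of each group. The vehicle SD was the larger in 8 of 10 fibrillar collagens and in 7 of 9 proteoglycans and glycoproteins, against 32.9% of all named genes. It was the larger in 5 of 8 stellate cell, pericyte and contractile genes and in 2 of 4 matrix proteases and inhibitors. For other collagens it was 5 of 13, for basement membrane genes 3 of 14 and for Adamts genes 1 of 4. Genes share the same rats, so these counts are not independent. Over the 64 genes the vehicle SD was the larger in 31 (48.4%), and in neither lysyl oxidase. With 4 vehicle rats these SDs are rough, and the difference in spread was not tested. Vehicle rat 1 had the highest value of its group in 42 of the 64 genes, and vehicle rat 2 the lowest in 27. The mean of Col1a1, Col1a2 and Col3a1 ran from 8.01 to 8.28 in D-penicillamine rats, against 8.55, 7.79, 8.05 and 8.20 in vehicle rats 1 to 4.

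**Figure D3:**
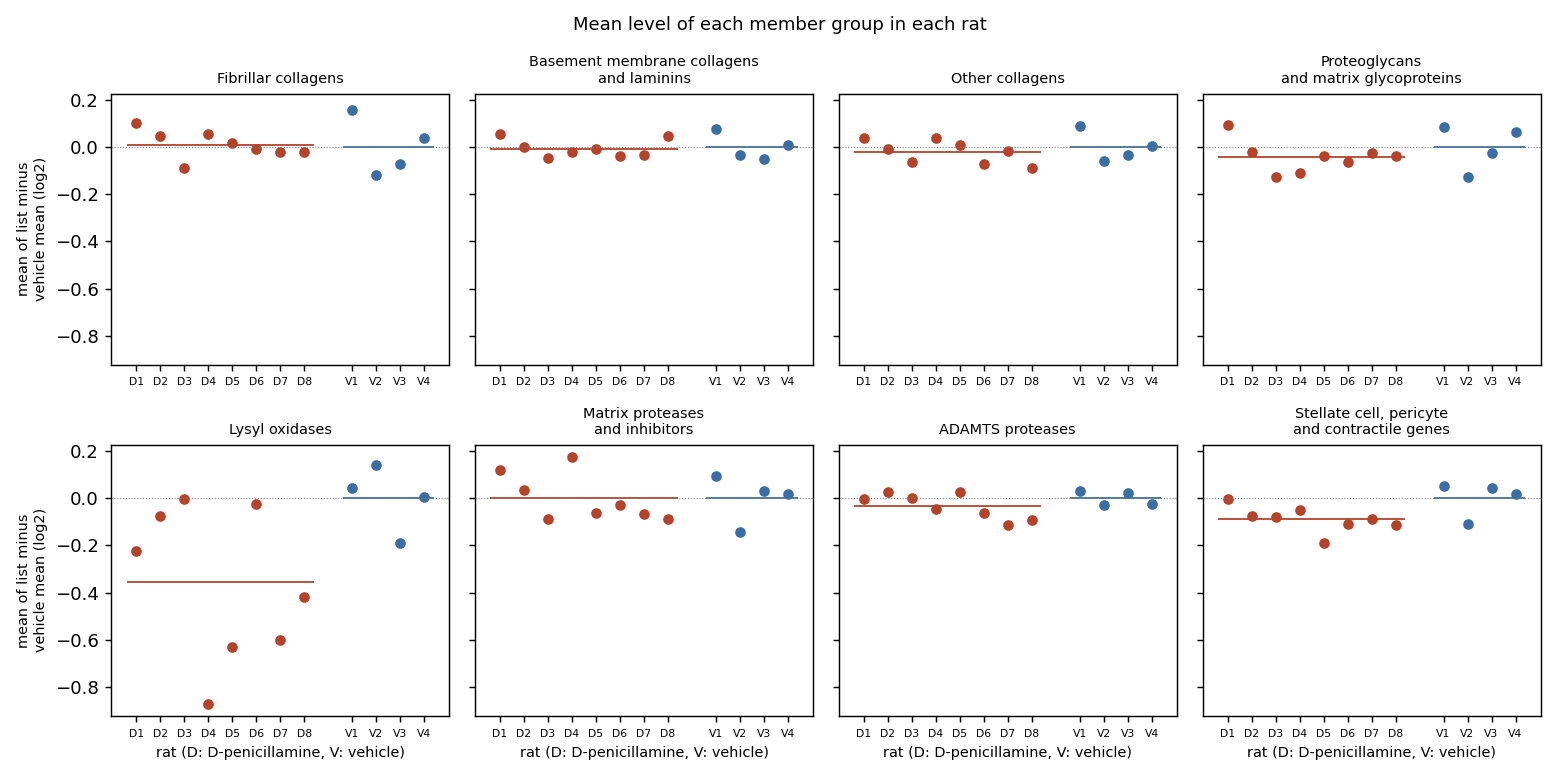
Each panel gives, for 1 role, the mean log2 level of its genes in every rat as a distance from the vehicle mean, with the 8 D-penicillamine rats (D) left of the 4 vehicle rats (V). Vehicle rats 1 and 2 stand at opposite ends of their group for the fibrillar collagens (7.07 and 6.79), and D-penicillamine rat 4 is the lowest for the lysyl oxidases (6.20).

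Correlations across the 12 rats were computed between Col1a1, Col1a2, Col3a1 and Lox, 6 pairs chosen after their values were seen. They were positive among the collagens, and none with Lox was detectable with this number of rats. Col1a2 and Col3a1 correlated with Pearson r = 0.80 (permutation p = 0.00124, Benjamini-Hochberg adjusted over the 6 pairs 0.00744) and Spearman rho = 0.81 (permutation p = 0.00224, adjusted 0.0134). Without vehicle rats 1 and 2 the r was 0.50, and within the 8 treated rats it was 0.77. Col1a1 and Col3a1 had r = 0.73 (permutation p = 0.00332, adjusted 0.00996) and rho = 0.60 (permutation p = 0.0442, adjusted 0.133), with r = 0.40 without D-penicillamine rat 1 and vehicle rat 1, and 0.87 within the treated rats. Col1a1 and Col1a2 had r = 0.63 (permutation p = 0.0567, adjusted 0.113) and rho = 0.50 (permutation p = 0.0975, adjusted 0.195), with r = 0.11 without D-penicillamine rat 1 and vehicle rat 1, and 0.58 within the treated rats. Lox correlated with Col1a1, Col1a2 and Col3a1 at r = -0.065, 0.24 and -0.20 (permutation p = 0.808, 0.473 and 0.533, adjusted 0.808, 0.639 and 0.639). The matching rho values were -0.28, 0.24 and -0.10 (permutation p = 0.378, 0.457 and 0.753, adjusted 0.548, 0.548 and 0.753). Without D-penicillamine rat 1 and vehicle rat 1, Lox and Col1a1 had r = -0.43. Without vehicle rats 1 and 2, Lox had r = 0.49 with Col1a2 and -0.062 with Col3a1. The r of 0.49 lay near the 0.50 of Col1a2 with Col3a1 in the same rats. Within the treated rats the r of Lox with Col1a1, Col1a2 and Col3a1 was -0.018, 0.36 and -0.036.

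**Figure D4:**
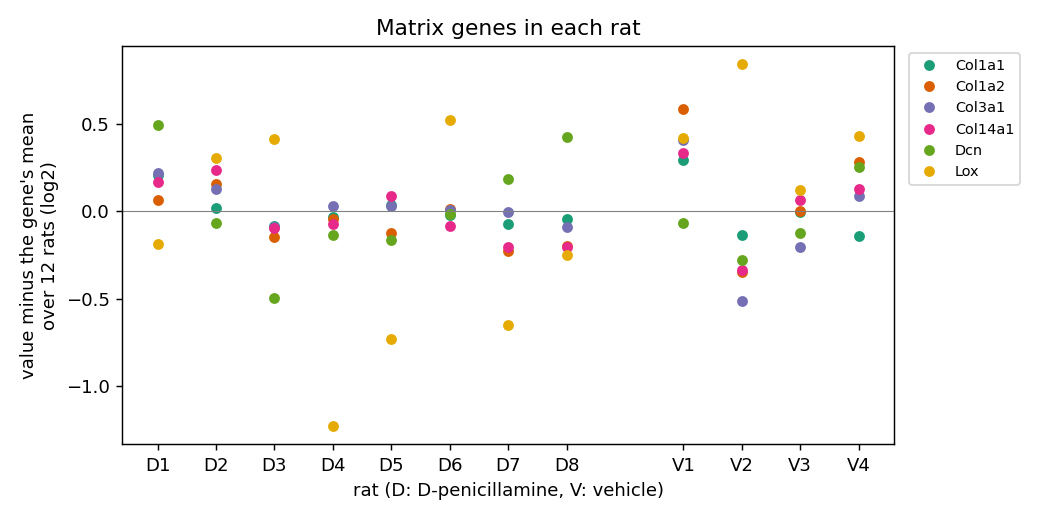
The plot gives matrix genes in every rat as the log2 distance from the gene's mean over the 12 rats, with D-penicillamine rats (D) left of vehicle rats (V). The collagens Col1a1, Col1a2, Col3a1 and Col14a1 stand high together in vehicle rat 1, and Lox is low in D-penicillamine rat 4, where it was 5.59.

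Basement membrane collagens and laminins build the thin sheet under epithelium and vessels. Of 14 genes, 10 were negative and 4 positive, with a median of -0.019, and none had an unadjusted p under 0.05. The chains of type IV collagen that occur in most basement membranes overlapped between the groups. Col4a1 ran from 7.80 to 8.08 in D-penicillamine rats (median 7.94), against 8.17, 7.88, 7.82 and 7.99 in vehicle rats (difference -0.025, SE 0.072). Col4a2 ran from 8.19 to 8.41 in D-penicillamine rats (median 8.245), against 8.48, 8.23, 8.20 and 8.26 in vehicle rats (difference -0.016, SE 0.061). Both differences were positive without vehicle rat 1, at 0.043 and 0.046.

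The largest positive difference of the 64 genes was that of Col18a1, whose protein also gives rise to endostatin. It ran from 10.66 to 11.17 in D-penicillamine rats (median 10.975), against 10.70, 10.85, 10.62 and 10.90 in vehicle rats. Of the treated rats 7 of 8 lay above the vehicle mean, with a difference of 0.18 (SE 0.085, 95% interval -0.00050 to 0.36, adjusted p = 0.807). Its other probe set stood at 0.054 (SE 0.055). Col4a4, a type IV chain known from kidney, ran from 4.58 to 5.12 in D-penicillamine rats (median 4.83), against 4.85, 4.68, 4.55 and 4.67 in vehicle rats (difference 0.165, SE 0.086, adjusted p = 0.820). Col15a1, which links basement membranes to the stroma below, ran from 6.39 to 6.70 in D-penicillamine rats (median 6.575), against 6.66, 6.68, 6.60 and 6.66 in vehicle rats (difference -0.099, SE 0.058, adjusted p = 0.831). These 3 genes were taken for the smallest p within their role, and in each the groups overlapped. The 8 laminin genes lay between -0.091 (Lamc1) and 0.0075 (Lama4), with 6 negative and 2 positive.

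The 13 other collagens had a median of -0.020, with 10 negative, 2 positive and Col8a1 at 0. The 3 with the smallest p were Col7a1, Col8a2 and Col6a3. Col7a1, the collagen of anchoring fibrils, ran from 5.40 to 5.84 in D-penicillamine rats (median 5.52), against 5.47, 5.52, 5.26 and 5.44 in vehicle rats (difference 0.155, SE 0.078, adjusted p = 0.807). Col8a2, a network-forming collagen, ran from 4.61 to 4.80 in D-penicillamine rats (median 4.725), against 4.99, 4.79, 4.77 and 4.75 in vehicle rats. Its difference of -0.105 (SE 0.055, adjusted p = 0.820) was -0.050 without vehicle rat 1, which stood apart from the other vehicle rats. Col6a3, a chain of type VI collagen, ran from 6.50 to 6.84 in D-penicillamine rats (median 6.705), against 6.82, 6.59, 6.77 and 6.77 in vehicle rats (difference -0.074, SE 0.068). The partner chains Col6a1 and Col6a2 stood at -0.0063 (SE 0.089) and 0.030 (SE 0.099), and D-penicillamine rat 4 was the highest rat for both, at 7.87 and 8.06.

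Among the 9 proteoglycans and matrix glycoproteins, 6 were negative and 3 positive, with a median of -0.031. Lum was the member with an unadjusted p under 0.05. Decorin (Dcn), a proteoglycan of the same family that binds transforming growth factor beta, ran from 5.91 to 6.90 in D-penicillamine rats (median 6.365), against 6.34, 6.13, 6.28 and 6.66 in vehicle rats. The treated rats reached beyond the vehicle rats at both ends (difference 0.081, SE 0.15, adjusted p = 0.943). Biglycan (Bgn), its close relative, ran from 9.75 to 10.14 in D-penicillamine rats (median 10.03), against 10.22, 9.91, 9.98 and 10.03 in vehicle rats (difference -0.031, SE 0.072). Neither thus shared the estimate of -0.20 seen for lumican, although the differences between these genes were not tested.

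Fibronectin (Fn1), which hepatocytes make for plasma and stromal cells for tissue, ran from 12.06 to 12.50 in D-penicillamine rats (median 12.335), against 12.20, 12.45, 12.16 and 12.39 in vehicle rats. The groups covered the same range (difference 0.010, SE 0.075). Sparc, a secreted collagen-binding glycoprotein, ran from 8.47 to 8.55 in D-penicillamine rats (median 8.515), against 8.62, 8.31, 8.55 and 8.54 in vehicle rats (difference 0.0062, SE 0.052). The 8 treated rats lay within 0.08 of each other between vehicle rats 1 and 2. Ecm1, a secreted glycoprotein, ran from 9.25 to 9.64 in D-penicillamine rats (median 9.425), against 9.67, 9.20, 9.55 and 9.71 in vehicle rats. Vehicle rat 2 lay below every treated rat, and the difference of -0.10 (SE 0.089, adjusted p = 0.872) was -0.21 without it.

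Reln, whose protein reelin stellate cells make in liver, ran from 8.07 to 8.37 in D-penicillamine rats (median 8.275), against 8.49, 8.05, 8.32 and 8.34 in vehicle rats (difference -0.060, SE 0.080). Fbln5, which helps assemble elastic fibres, ran from 5.62 to 5.92 in D-penicillamine rats (median 5.745), against 6.04, 5.72, 5.67 and 5.61 in vehicle rats (difference -0.0038, SE 0.078). For both genes vehicle rat 1 was the highest of the 12 rats. Postn, a matricellular protein of scarring tissue, ran from 3.80 to 4.14 in D-penicillamine rats (median 3.955), against 4.13, 4.02, 3.96 and 4.02 in vehicle rats (difference -0.074, SE 0.058, adjusted p = 0.865).

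Proteases and their inhibitors, which turn matrix over, gave no unadjusted p under 0.05. Mmp2, a gelatinase of stellate cells, ran from 6.18 to 6.54 in D-penicillamine rats (median 6.35), against 6.61, 6.32, 6.59 and 6.50 in vehicle rats. Of the treated rats 6 of 8 lay below the vehicle mean (difference -0.15, SE 0.071, adjusted p = 0.807), but the other probe set of the gene stood at 0.049 (SE 0.051). Timp1, the inhibitor best known from liver fibrosis, ran from 5.76 to 6.41 in D-penicillamine rats (median 6.105), against 6.15, 5.92, 5.99 and 6.09 in vehicle rats (difference 0.063, SE 0.090). Timp2, which also takes part in activating Mmp2, ran from 7.54 to 7.85 in D-penicillamine rats (median 7.695), against 7.86, 7.43, 7.84 and 7.74 in vehicle rats (difference -0.016, SE 0.077). Timp3, the inhibitor that stays bound to matrix, ran from 7.29 to 7.86 in D-penicillamine rats (median 7.38), against 7.36, 7.36, 7.31 and 7.35 in vehicle rats. The 4 vehicle rats were close together and D-penicillamine rat 4 stood above all others. The difference was 0.099 (SE 0.084, adjusted p = 0.872), and 0.039 without that rat.

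The 4 genes of the Adamts family, secreted proteases with thrombospondin repeats and their relatives, lay between -0.080 and 0.011. Adamts1, which cleaves the proteoglycan versican, ran from 5.61 to 6.06 in D-penicillamine rats (median 5.875), against 5.88, 5.85, 6.06 and 5.98 in vehicle rats (difference -0.080, SE 0.076, adjusted p = 0.884). Adamts9 ran from 6.38 to 6.64 in D-penicillamine rats (median 6.40), against 6.71, 6.48, 6.42 and 6.43 in vehicle rats (difference -0.033, SE 0.072). Adamtsl4, a relative without a protease domain, ran from 7.67 to 8.00 in D-penicillamine rats (median 7.865), against 7.85, 7.88, 7.94 and 7.87 in vehicle rats (difference -0.029, SE 0.053). In all 3 the groups overlapped.

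Of 20 measured genes of TGF-beta and PDGF signalling, the pathways that act on stellate cells, 15 were positive and 5 negative (median 0.052), and 0 passed the adjusted threshold. An unadjusted p under 0.05 was reached by 3 higher genes, Smad7, Pdgfd and Tgfb1, and by 2 lower ones, Ccn2 and Ltbp1. That is 25% of the list, against 6.36% of all named genes. This list was chosen with earlier results of these data known, so the share is only a description. Smad7, an intracellular inhibitor of TGF-beta signalling, ran from 6.16 to 6.48 in D-penicillamine rats (median 6.235), against 5.86, 6.04, 6.11 and 5.99 in vehicle rats. The groups did not overlap, which held for 0.195% of all probe sets in this direction, and the difference was 0.26 (SE 0.066, adjusted p = 0.556). Its other probe sets stood at 0.18 (SE 0.081) and 0.028 (SE 0.065). Ccn2, the connective tissue growth factor gene and a target of TGF-beta, ran from 4.70 to 4.83 in D-penicillamine rats (median 4.765), against 4.99, 4.79, 5.20 and 4.90 in vehicle rats. All 8 treated rats lay below the vehicle mean (difference -0.20, SE 0.063, adjusted p = 0.693), and without vehicle rat 3, the highest, the difference was -0.12. Pdgfd (0.11, SE 0.040, with no overlap), Tgfb1 (0.13, SE 0.057) and Ltbp1 (-0.11, SE 0.051) were named after their values were seen. Pdgfd, Ltbp1 and Ccn2 were dim, at percentiles 3.46, 1.95 and 16.5 of signal, against 46.6 for Smad7 and 60.8 for Tgfb1.

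Of 14 genes that process or cross-link collagen, 5 were positive and 9 negative (median -0.018). Tgm2, tissue transglutaminase, which cross-links proteins without copper, ran from 8.64 to 8.85 in D-penicillamine rats (median 8.735), against 8.80, 8.96, 9.02 and 8.85 in vehicle rats. All 8 treated rats lay below the vehicle mean (difference -0.18, SE 0.053, adjusted p = 0.693), whereas its other probe set stood at 0.064 (SE 0.084). Serpinh1, the collagen chaperone HSP47, ran from 7.47 to 7.71 in D-penicillamine rats (median 7.64), against 8.05, 7.59, 7.65 and 7.84 in vehicle rats. Its difference of -0.16 (SE 0.078, adjusted p = 0.807) was -0.072 without vehicle rat 1, and its other probe set stood at 0.019 (SE 0.051).

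Of 16 matrix metalloproteinases and activators, 7 were positive and 9 negative (median -0.0082). Plat, the tissue plasminogen activator gene, ran from 5.21 to 5.47 in D-penicillamine rats (median 5.375), against 5.50, 5.46, 5.48 and 5.47 in vehicle rats (difference -0.13, SE 0.054, adjusted p = 0.781). The urokinase gene Plau ran from 6.79 to 7.25 in D-penicillamine rats (median 6.915), against 6.91, 6.85, 6.77 and 6.84 in vehicle rats (difference 0.12, SE 0.073). Its other probe set stood at 0.0025 (SE 0.068). Of 7 integrins, 3 were positive and 4 negative (median -0.0013), with Itga6 at 0.11 (SE 0.083) and Itga7 at 0.039 (SE 0.046). Itga6 was 0.0050 without vehicle rat 3, and its other probe set stood at -0.080 (SE 0.052). Of 23 elastic fibre and other matrix genes, 10 were positive and 13 negative (median -0.013), with the proteoglycan gene Fmod at 0.12 (SE 0.065) and the basement membrane gene Nid1 at -0.205 (SE 0.12). Nid1 was -0.35 without vehicle rat 2, and its other probe set stood at -0.14 (SE 0.054).

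Markers of the cell types that a piece of liver holds were read beside these genes, each list by its count and its median difference. The endothelial and Kupffer cell lists are also given by their mean level. Stellate cell markers were negative in 8 of 12 (median -0.094), but 10 of the 12 are genes described above, among them the 4 with an unadjusted p under 0.05, so the list adds little to them. Its other genes, Hand2 at 0.083 (SE 0.072) and Hgf at 0.058 (SE 0.072), were both positive and are named here after their values were seen. Markers of vascular smooth muscle, a tissue that also expresses Acta2 and Tagln, were negative in 7 of 8 (median -0.053), with Myh11 at -0.14 (SE 0.068) and Lmod1 at 0.12 (SE 0.079). Portal fibroblast markers were negative in 2 of 6 (median 0.024), with Fbln2 at -0.058 (SE 0.051) and Gas6 at 0.048 (SE 0.071). Endothelial markers were negative in 6 of 6 (median -0.049), against 51.6% of all named genes. Flt1 stood at -0.045 (SE 0.050, its other probe sets at 0.048 and 0.015) and Lyve1 at -0.096 (SE 0.11). The mean level of this list was 7.21 in vehicle rat 3, against 6.90, 6.885 and 6.955 in vehicle rats 1, 2 and 4. It ran from 6.81 to 7.055 in D-penicillamine rats. Without vehicle rat 3 the difference of Lyve1 was 0.0063. Kupffer cell markers were positive in 7 of 7 (median 0.12), against 4963 of 10411 named genes. An unadjusted p under 0.05 was reached by 3 of the 7, against 6.36% of all named genes, namely C1qc, Tyrobp and Csf1r at 0.16 (SE 0.067), 0.12 (SE 0.050) and 0.12 (SE 0.051). Their mean ran from 8.34 to 8.53 in D-penicillamine rats, against 8.24 to 8.47 in vehicle rats. The marker lists were chosen with earlier results of these data known, so their counts are only a description. The part of these cell types in the matrix results was not tested.

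The remaining marker lists were split in sign. Cholangiocyte markers were negative in 3 of 6 (median -0.023), with Krt7 at 0.15 (SE 0.063) and Krt19 at -0.13 (SE 0.088). Mesothelial markers were negative in 2 of 4 (median -0.021), with Wt1 at -0.066 (SE 0.051, its other probe set at 0.075), and lymphocyte markers in 3 of 8 (median 0.020), with Cd8a at 0.096 (SE 0.077) and Ptprc at 0.058 (SE 0.061, its other probe set at -0.064). Hepatocyte markers were negative in 5 of 12 (median 0.033). Glul and Pck1 stood at 0.29 (SE 0.14) and -0.16 (SE 0.099) there, and Glul was 0.17 without vehicle rat 2 and 0.47 without vehicle rat 1. Its other probe sets stood at 0.18 and 0.46. None of these passed the adjusted threshold.

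Array medians lay between 6.30 and 6.35, so the arrays shared 1 scale. The difference between 3' and 5' control probe sets, which grows as RNA degrades, lay between 0.43 and 0.605 in D-penicillamine rats, against 0.495, 0.585, 1.185 and 0.51 in vehicle rats, so vehicle rat 3 stood apart. With vehicle rat 3 and D-penicillamine rat 4 both left out, 8 of the 85 probe sets had an unadjusted p under 0.05, 7 of them lower (9.41%, against 5.33% of all probe sets). All arrays came from 1 chip lot and 1 scan day, and all vehicle arrays were scanned first, so scan order and group cannot be told apart. The 12 hepatocyte markers lay between percentiles 89.0 (Hnf4a) and 100 (Alb) of signal on the array, and the 12 stellate cell markers between percentiles 5.53 (Lum) and 84.5 (Reln). Probe sets differ in affinity and the values carry no detection call, so these percentiles are a description and not a measure of which cells were present.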

How the data were processed

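Liver RNA of 12 rats was measured on 1 Affymetrix rat array each. The authors deposited log2 expression values made with RMA, per the submitters' processing notes; RMA corrects background, normalizes arrays by quantiles and summarises probes, so a shift of most transcripts could not be seen. Its version is not given in the sources used here and RMA gives no detection call. The number of arrays bounds the precision. Each label names an individual rat, so the arrays were treated as separate animals; cage mates share surroundings, and cage could not be put in the fit. The 57 array controls were left out. The platform annotation named the probe sets, with symbols updated to GRCr8: 12783 had 1 symbol, 312 several and 2771 none. Probe sets annotated to Acta2 and Actc1 together were not used. The groups were fitted with lmFit and eBayes of limma 3.58.1 under R 4.3.3, two-sided, on a group term. A gene was read by its brightest probe set on average. The fit was tested on simulated data. Correlations used scipy 1.17.1.

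Members and gene lists were chosen with earlier results of these data known. Named genes are the 20 listed members, 9 collagen, Timp and Adamts genes whatever their values, the 3 smallest p per role and the 2 smallest per pathway and marker list. Values in each group are given for the named members and some pathway genes, and differences alone for the rest of the named genes. Alternatives were median centring, further quantile normalization, the brighter probe sets, array weights, the 3' to 5' difference as covariate, a trended robust fit, a replicate block, averaging all probe sets of a gene, and leaving rats out.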

Additional observations from a re-analysis of the deposited data

Results flagged for a closer look

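In 128 groups checked (64 named genes in each of the 2 groups of rats) 9 values had a gap to the nearest rat that was large for the range of their group. Chance alone gives such a gap in about 1 group in 20. That is 7.03% of the groups, for 8 genes. Among the treated rats, D-penicillamine rat 4 was lowest for Lrat at 5.84 (nearest rat 6.55) and highest for Timp3 at 7.86 (nearest 7.52). D-penicillamine rat 1 was highest for Col1a1 at 7.08 (nearest 6.91), and D-penicillamine rat 8 was highest for Krt7 at 5.80 (nearest 5.56). Among the controls, vehicle rat 2 was lowest for Pdgfra at 7.25 (nearest 7.60) and for Lrat at 6.35 (nearest 6.80). Vehicle rat 1 was highest for Col8a2 at 4.99 (nearest 4.79) and for Fbln2 at 6.84 (nearest 6.65), and lowest for Pck1 at 12.28 (nearest 12.66).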

How the results depend on the processing

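For the 64 named genes, 1319 differences were computed under 21 settings. Of these, 1263 kept the sign of the reported value and 56 did not, spread over 22 genes, and none passed the adjusted threshold. The count of matrix and stellate cell probe sets past an adjusted p of 0.05 was 0 under every setting run (limma). The count past an unadjusted p of 0.05, reported as 5, was 2 among the brighter probe sets, of which there were 45, and 8 with vehicle rat 3 and D-penicillamine rat 4 both left out, and with 1 rat left out it ran from 4 to 10. With the replicate numbers as a block the count was 5, of which 3 were higher and 2 lower. The deviations of rats with the same number correlated at 0.25, -0.16, 0.14 and -0.13. Rats of unlike number were not compared, so whether the numbers pair the rats was not tested. Over all probe sets the adjusted count of 0 was 2 with array weights and 0 to 1 with 1 rat left out. The median of the 64 genes, -0.016, ran from -0.043 to 0.0092 with 1 rat left out. Signs turned under array weights for Dcn (-0.066), Fn1 (-0.051), Gfap (-0.036), Fbln5 (0.020), Col1a1 (0.035) and Gas6 (-0.0046). With the 3' to 5' difference as covariate they turned for Dcn (-0.0047), Fn1 (-0.015), Gfap (-0.017), Tagln (0.014), Timp2 (0.016) and Lyve1 (0.0045). With the block they turned for Bgn (0.033), Loxl1 (0.045), Col1a1 (0.023), Timp2 (0.030) and Adamts9 (0.0050). With both of those rats left out they turned for Fn1 (-0.064), Gfap (-0.045), Timp2 (0.0033), Itga6 (-0.016), Lyve1 (0.057) and Gas6 (-0.015). With a gene's probe sets averaged they turned for Sparc (-0.013), Flt1 (0.0058), Ptprc (-0.0031) and Wt1 (0.0044). With 1 rat left out the difference ran from -0.073 to 0.030 for Bgn, from -0.037 to 0.060 for Fn1, from -0.065 to 0.0083 for Loxl1, from -0.059 to 0.045 for Sparc and from -0.043 to 0.010 for Des. It ran from -0.014 to 0.053 for Gfap, from -0.054 to 0.090 for Fbln5, from -0.053 to 0.094 for Col1a1, from -0.14 to 0.0033 for Reln and from -0.070 to 0.24 for Col3a1. It ran from -0.073 to 0.043 for Col4a1, from -0.047 to 0.046 for Col4a2, from -0.11 to 0.031 for Timp2, from -0.063 to 0.034 for Adamts9 and from -0.19 to 0.0063 for Lyve1. The cause of these changes was not tested.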
